A study of Mus musculus with 10 samples.

Results

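The 10 genes described here encode the enzymes that make and break down polyamines, together with the proteins that control the first enzyme of the route. They were chosen by symbol from the 48897 rows of each expression table. Odc1, Amd1, Srm and Sms encode the synthetic enzymes, Sat1, Smox and Paox the catabolic enzymes, and Azin1, Oaz1 and Oaz2 the regulators of ornithine decarboxylase. All 10 genes had a row in both tables, all 10 passed the filter on low values in the epithelium, and 9 passed it in Myc-CaP.

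Arid1a encodes a DNA-binding subunit of the SWI/SNF chromatin remodeller, and RNA-seq of 10 mouse samples was done to compare prostate tumour cells with and without it. EpCAM+ CD45- epithelial cells were sorted from prostates of 3-month-old C57BL/6 mice, with 3 libraries (A, B and C) from mice without Arid1a deletion in their label (the control) and 3 from Arid1a PC-/- mice, labelled KO. Both groups carry a further engineered deletion in the cells in which the Probasin promoter drives Cre, and neither is wild type. Myc-CaP, a prostate cancer line from FVB mice in which Myc drives the tumour, was represented by 2 empty vector (EV) libraries and 2 libraries in which Arid1a was targeted with a lentiviral CRISPR guide, labelled KO. All samples carry the same growth and treatment text, and the study also describes RNA from Myc-CaP tumours, so growth of these cells in culture is read from the labels. The study's methods give n = 3 for the mice of the epithelium. The labels do not say whether libraries of a group came from separate mice or cultures, so p-values measure the spread between these libraries.

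Polyamines (putrescine, spermidine and spermine) are small cations that bind nucleic acids and are needed for growth. Ornithine decarboxylase makes putrescine from ornithine, and the aminopropyl groups that turn putrescine into spermidine and spermidine into spermine come from decarboxylated S-adenosylmethionine. The prostate secretes polyamines, spermine above all, in unusually large amounts, and Odc1 is a known target gene of both MYC and the androgen receptor. Antizymes bind ornithine decarboxylase and send it to the proteasome without ubiquitin, and the antizyme inhibitor frees it by binding the antizymes in its place.

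Reference sequences are shown for the genes whose values differed most, since the data concern their transcript levels. RefSeq (GRCm38.p6) gave a promoter for 8 of the 10 genes, in 10 windows, and none was found for Srm and Azin1. The 250 bases before the start were searched on both strands for the GC box GGGCGG, the E-box CACGTG that MYC binds, the TATA box TATAAA and the CRE core TGACG. Of 32851 mouse promoter windows of that length, 32.7% held a GC box, 6.02% an E-box, 12.4% a TATA box and 17.8% a CRE core. Below are the stretches of the Odc1, Smox and Oaz2 windows that lie outside annotated exons, read 5′ to 3′ on the plus strand, with GC boxes of either strand in capitals.
Odc1, chr12:17544623-17544793: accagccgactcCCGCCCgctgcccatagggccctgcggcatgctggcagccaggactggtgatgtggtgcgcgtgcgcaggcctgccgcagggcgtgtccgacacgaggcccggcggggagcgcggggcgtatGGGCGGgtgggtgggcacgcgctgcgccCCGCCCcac
Smox, chr2:131491654-131491763: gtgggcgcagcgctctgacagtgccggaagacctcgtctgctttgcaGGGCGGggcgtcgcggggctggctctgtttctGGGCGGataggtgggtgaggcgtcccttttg
Oaz2, chr9:65676298-65676547: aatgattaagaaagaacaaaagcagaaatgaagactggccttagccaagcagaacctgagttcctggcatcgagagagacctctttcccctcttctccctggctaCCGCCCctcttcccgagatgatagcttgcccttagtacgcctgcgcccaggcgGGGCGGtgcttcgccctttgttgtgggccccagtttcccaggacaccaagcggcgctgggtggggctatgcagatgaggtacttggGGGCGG
The Odc1 stretch of 171 bases lay directly upstream of the gene in GENCODE M21 and held 3 GC boxes. The Smox stretch of 110 bases lay between the first exons of 2 annotated transcripts and held 2 of the 6 GC boxes of its full window. The Oaz2 stretch of 250 bases ended at the start of the coding transcripts, in an intron of a longer non-coding one, and held 3 GC boxes. Over the full windows, a GC box was found for 7 of the 8 genes and was not found for Oaz1. The E-box was found only in 1 of the 2 windows of Sms, and sequence outside the windows, introns included, was not searched. No window held the exact letters TATAAA, but the Amd1 window held the near match TATATAA, which the search did not count. Over the full windows, the CRE core was found once for Odc1, outside the stretch shown, once for Amd1 and at 2 positions for Oaz1. These matches describe letters in a window and are not shown to be bound.

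Both antizyme genes carry a stop codon inside the coding sequence, and full-length protein is made only when ribosomes shift frame there, which polyamines stimulate. The sites are shown because transcript levels of Oaz1 and Oaz2 do not record that step. Each lies in a coding exon on the plus strand of GRCm38, with the TGA stop of the first frame in capitals.
Oaz1, chr10:80828277-80828315: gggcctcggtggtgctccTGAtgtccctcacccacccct
Oaz2, chr9:65686254-65686292: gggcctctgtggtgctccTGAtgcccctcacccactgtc
The stop followed 68 codons in Oaz1 and 32 codons in Oaz2, and 33 of the 39 bases were the same in both windows. GENCODE leaves out 4 bases at each site to join the frames in its coding model.

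Arid1a was examined to check the labels. In the epithelium it measured 25.4 ± 3.13 RPKM (a read number corrected for transcript length and sequencing depth; SD, n = 3) in control libraries and 30.2 ± 1.23 RPKM (n = 3) in libraries labelled KO. It was thus not lower with the label, and the libraries are named by label throughout. The study separately stained prostate sections for ARID1A protein. A floxed gene may lose only part of its sequence, so the deletion cannot be judged from the level of the whole Arid1a transcript. In Myc-CaP it fell from 60.7 ± 0.355 to 39.9 ± 0.581 TPM (a length-corrected share of the whole library; SD, n = 2 each; log2 fold change -0.59 ± 0.06 (SE), limma adjusted p = 0.0102), a call lost without any 1 of the 4 libraries (-0.61 to -0.58, adjusted p from 0.0984 to 0.111). Such a fit sets 2 libraries against 1 and assumes that the lone library varies like the other group, and over all genes it left 47 to 76 of 899 calls, so the loss of a call in it says little about a single gene. RPKM summed to between 441646 and 473331 in control libraries and between 397999 and 403031 in those labelled KO. The tables were normalized separately, so levels in RPKM and TPM are not comparable and nothing was tested between them.

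In the epithelium, 2 genes of the route stood higher by a wide margin in the libraries labelled KO. Odc1 rose 3.29-fold and Smox 1.92-fold, while Oaz2, an antizyme gene, fell to 0.641 of its control level. The other 7 genes lay between 0.761 and 1.29 of their control level. A gene was called at a limma adjusted p under 0.05, and 7 of the 10 genes were called, 3 higher and 4 lower. Of all 16275 genes tested here, 57.1% were called, 27.5% higher and 29.6% lower, so the count of 7 was close to the background and the size of each change is given instead. The median log2 fold change of the 10 genes was -0.08, against -0.03 over all tested genes. Gene positions below are those of GENCODE M21 on GRCm38, and the plot of RPKM by library shows each value.

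**Figure D1:**
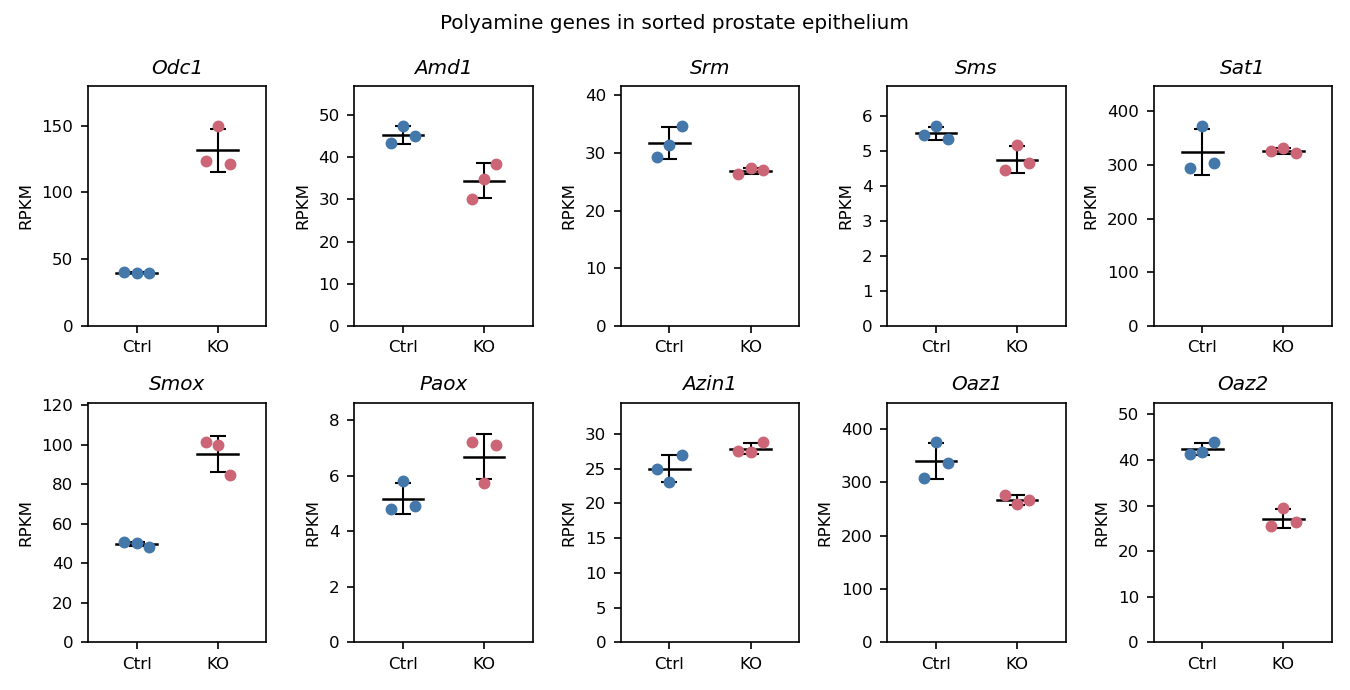
RPKM of the 10 polyamine genes in the 3 control (Ctrl, blue) and 3 KO-labelled (KO, red) epithelium libraries, each axis starting at 0. Points are libraries in the order A, B and C, and black bars show the mean and SD. All Odc1 values with the KO label lie at 121 RPKM or above, and all control values at 40.7 RPKM or below.

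Odc1 (chr12:17544794-17551505), which encodes ornithine decarboxylase, the first and highly regulated enzyme of the route, measured 40.7, 39.8 and 39.4 RPKM in the control libraries (in the order A, B, C, as throughout) and 124, 149.8 and 121 RPKM in those labelled KO. The control libraries lay close together and every KO-labelled library was far above them. The means were 39.97 ± 0.632 and 131 ± 15.95 RPKM (SD, n = 3 each), with a log2 fold change of 1.69 ± 0.09 (SE) and a limma adjusted p of 1.53e-05. Only 1.11% of the 16275 genes tested had a log2 fold change as high. The call and direction were kept in all 15 alternatives, with log2 fold changes from 1.59 to 1.88.

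The enzymes downstream of Odc1 did not share its direction. Amd1 (chr10:40287458-40302186, S-adenosylmethionine decarboxylase, which supplies the aminopropyl donor) measured 43.3, 47.4 and 45.03 RPKM in the control libraries and 30.2, 34.8 and 38.4 RPKM in those labelled KO. The groups did not overlap, as for 66.7% of all genes tested (32.4% above and 34.4% below). Amd1 fell by 0.39 ± 0.09 (SE) on the log2 scale (limma adjusted p = 0.00857). When every library was rescaled to the same sum, which shifted the median over all genes from -0.03 to 0.11 on that scale, Amd1 gave -0.22 with an adjusted p of 0.0734.

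Amd2, a near-copy, had a transcript 99.6% identical to that of Amd1, so reads could be divided between them and the level of either is uncertain. The value of Amd2 was 2.25% to 4.76% of that of Amd1 in control libraries and 0.543% to 1.16% in those labelled KO.

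Srm (chr4:148591503-148594993, spermidine synthase) measured 29.2, 31.3 and 34.7 RPKM in the control libraries and 26.4, 27.4 and 26.96 RPKM in those labelled KO. Every KO-labelled library was below every control library, though the nearest values of the groups were close. Srm fell by 0.23 ± 0.07 (SE) on the log2 scale (limma adjusted p = 0.0309). This call was lost in 8 of 15 alternatives. Among them were the removal of control library C (-0.16, adjusted p = 0.108) or of KO-labelled library A, B or C (adjusted p from 0.0653 to 0.0893). After removal of a trend on gene length the fold change was 0.023. Rescaled to the same sum, Srm gave -0.055 with an adjusted p of 0.589.

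Sms (chrX:157443855-157492287, spermine synthase) was the least abundant of the synthetic enzymes, at 5.45, 5.70 and 5.32 RPKM in the control libraries and 4.435, 5.17 and 4.63 RPKM in those labelled KO. The groups did not overlap, but the difference did not pass the test, with a log2 fold change of -0.18 (95% interval -0.36 to 0.0013) and a limma adjusted p of 0.0816. It passed only after removal of the trend on gene length, at -0.24 with an adjusted p of 0.0279. Rescaled to the same sum, Sms gave -0.032 with an adjusted p of 0.792.

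Among the catabolic enzymes, Smox differed most. Smox (chr2:131491496-131525922) encodes spermine oxidase, which turns spermine back to spermidine and releases hydrogen peroxide. It measured 50.7, 50.2 and 48.5 RPKM in the control libraries and 101, 99.99 and 84.9 RPKM in those labelled KO. The groups were well apart, with library C the lowest of each group. The means were 49.8 ± 1.15 and 95.4 ± 9.08 RPKM (SD, n = 3 each), and Smox rose by 0.92 ± 0.08 (SE) on the log2 scale (limma adjusted p = 1.02e-04). The call was kept in all 15 alternatives (0.87 to 1.10), and 5.38% of all tested genes had a log2 fold change as high.

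Sat1 (chrX:155213132-155216449), which encodes the acetyltransferase that marks spermidine and spermine for export or oxidation, was among the 2 most abundant of the 10 genes and did not pass the test. It measured 295, 372 and 304 RPKM in the control libraries and 325, 331 and 321 RPKM in those labelled KO. Control library B was above, and control libraries A and C below, every KO-labelled library. The log2 fold change was 0.02 with a 95% interval of -0.22 to 0.25, and the limma adjusted p was 0.887. Quantile normalization gave 0.24 with an adjusted p of 0.0207, and without control library A or C the sign changed, to -0.045 and -0.023.

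Paox (chr7:140115799-140137224), the peroxisomal oxidase of acetylated polyamines, measured 4.80, 5.81 and 4.90 RPKM in the control libraries and 7.20, 5.75 and 7.12 RPKM in those labelled KO. The groups overlapped, because library B was the highest control and the lowest of those labelled KO. Paox rose by 0.32 ± 0.11 (SE) on the log2 scale (limma adjusted p = 0.0349). The call was lost in 6 of 15 alternatives, including removal of control library A or C or of KO-labelled library A or C, with adjusted p-values from 0.0972 to 0.109 without them.

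Both antizyme genes fell, Oaz2 by more. Oaz2 (chr9:65668001-65690300) measured 41.3, 41.9 and 43.8 RPKM in the control libraries and 25.5, 29.5 and 26.4 RPKM in those labelled KO. No value of either group came near the other, and 11.6% of all tested genes had a log2 fold change as low. The means were 42.3 ± 1.32 and 27.1 ± 2.09 RPKM (SD, n = 3 each), a fall by 0.63 ± 0.07 (SE) on the log2 scale with a limma adjusted p of 3.00e-04 that passed in all 15 alternatives (-0.68 to -0.46).

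Oaz1 (chr10:80826656-80829290), the main antizyme gene, measured 307, 374 and 335 RPKM in the control libraries and 277, 258 and 266 RPKM in those labelled KO. Every KO-labelled library was below every control library, and the control libraries were the more scattered. Oaz1 fell by 0.34 ± 0.09 (SE) on the log2 scale (limma adjusted p = 0.0144). The direction held in all 15 alternatives, but the call was lost under quantile normalization (-0.14), removal of the trend on gene length (-0.17) and rescaling to the same sum (-0.16), with adjusted p-values of 0.0882, 0.0967 and 0.104.

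A processed copy, Oaz1-ps, was 99.3% identical to Oaz1 over 685 aligned positions. Its value was 10.7% to 11.6% of that of Oaz1 in control libraries and 9.48% to 9.91% in those labelled KO, so part of the Oaz1 reads may be counted there. Azin1 (chr15:38487427-38519266, antizyme inhibitor) measured 24.9, 23.15 and 27.02 RPKM in the control libraries and 27.55, 27.4 and 28.8 RPKM in those labelled KO. Each KO-labelled library was above each control library by a narrow margin. The log2 fold change was 0.15 (95% interval -0.011 to 0.32) and the limma adjusted p was 0.0981, while rescaling to the same sum gave 0.33 with an adjusted p of 0.014.

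The order of the genes by level changed with the label. RPKM is per length, so levels can be set side by side within this table. In control libraries Oaz1 (339 RPKM) and Sat1 (323.5 RPKM) led and overlapped, followed by Smox (49.8 RPKM), Amd1 (45.3 RPKM), Oaz2 (42.3 RPKM), Odc1 (39.97 RPKM), Srm (31.7 RPKM) and Azin1 (25.04 RPKM), with Sms (5.49 RPKM) and Paox (5.17 RPKM) last. Amd1 and Oaz2 overlapped, as did Sms and Paox, and the other neighbours did not. In the libraries labelled KO, Odc1 moved from the sixth place to the third, above Smox, and Oaz2 (27.1 RPKM) overlapped both Azin1 (27.9 RPKM) and Srm (26.9 RPKM).

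Ratios between genes of the same library do not depend on how that library was scaled, and they are given as descriptions with no test. Odc1 divided by the sum of Oaz1 and Oaz2 was 0.117, 0.0957 and 0.104 for control and 0.409, 0.521 and 0.414 for KO-labelled libraries. The groups were far apart, 4.23-fold by their means. Azin1 divided by the same sum went from 0.0662 ± 0.00912 to 0.095 ± 0.00367 (SD, n = 3 each) and did not overlap. Odc1 over Sat1 went from 0.125 ± 0.0162 to 0.403 ± 0.0429, and Amd1 over Sat1 from 0.141 ± 0.0119 to 0.106 ± 0.0134, again without overlap. Srm over Sms, the enzymes of the 2 aminopropyl transfer steps, overlapped (5.79 ± 0.632 and 5.69 ± 0.342).

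**Figure D2:**
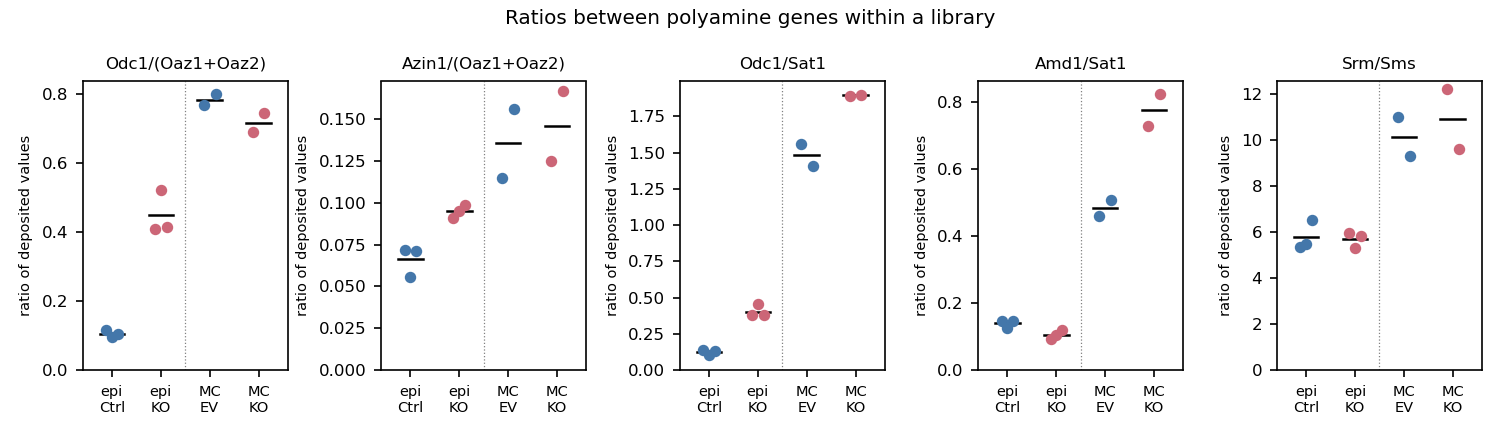
Ratios of deposited values between polyamine genes within each library, for epithelium (epi, RPKM) and Myc-CaP (MC, TPM), with control or EV libraries in blue, KO-labelled libraries in red and group means as black lines. The ratio of Odc1 to the antizyme genes is 0.0957 to 0.117 in control epithelium and 0.409 to 0.521 with the KO label, and 0.766 and 0.8 against 0.69 and 0.743 in Myc-CaP.

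Markers of other cell types moved with the label in the same libraries, where 27.5% of all tested genes were called higher and 29.6% lower. All 6 macrophage markers (Adgre1, Csf1r, Cd68, Lyz2, C1qa and C1qb) were called higher, with summed levels of 1933 to 2267 RPKM in control libraries and 3607 to 4149 RPKM in those labelled KO. Of 5 B cell markers 4 were called higher (124.8 to 140.0 RPKM and 429.6 to 751.4 RPKM), and of 5 general leukocyte markers 4 were higher and 1 lower (711.9 to 745.8 RPKM and 798.2 to 858.6 RPKM), although the sort took CD45- cells. All 6 luminal secretory markers of the prostate were called lower (778.0 to 852.7 RPKM and 13.0 to 52.5 RPKM), as were all 8 seminal vesicle markers (19460 to 21980 RPKM and 647 to 1632 RPKM), and 3 of 6 epithelial markers (4599 to 6109 RPKM and 3875 to 4262 RPKM). Of 6 neutrophil markers 3 were called higher (336.8 to 474.3 RPKM and 383.2 to 631.1 RPKM), as were 2 of 4 T cell markers (16.4 to 21.9 RPKM and 23.7 to 26.9 RPKM) and 1 of 4 endothelial markers (25.99 to 35.1 RPKM and 37.5 to 47.8 RPKM). Of 5 smooth muscle markers 4 were called lower and 1 higher (113.8 to 133.3 RPKM and 95.98 to 118.4 RPKM), and of 5 fibroblast markers 2 were called lower (1641 to 2395 RPKM and 1380 to 1951 RPKM). No marker of these lists was at 0 in all libraries. In bulk RNA, fewer cells of a type and less RNA per cell cannot be told apart, and the part of these shifts in the values of Odc1, Smox, Oaz2 and the other polyamine genes was not tested.

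In Myc-CaP, a different gene passed the test. Sat1 was the only 1 of the 9 tested genes to be called, and it fell by 0.53 ± 0.06 (SE) on the log2 scale. Of all 13974 genes tested here, 6.43% were called, 4.54% higher and 1.89% lower, and 5 of the 9 genes had an unadjusted limma p under 0.05, as had 3085 of all 13974. The smallest two-sided p that an exact permutation of 2 against 2 libraries allows is 0.333, so the limma result depends on a variance estimate borrowed from all genes. The plot of TPM by library shows each value.

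**Figure D3:**
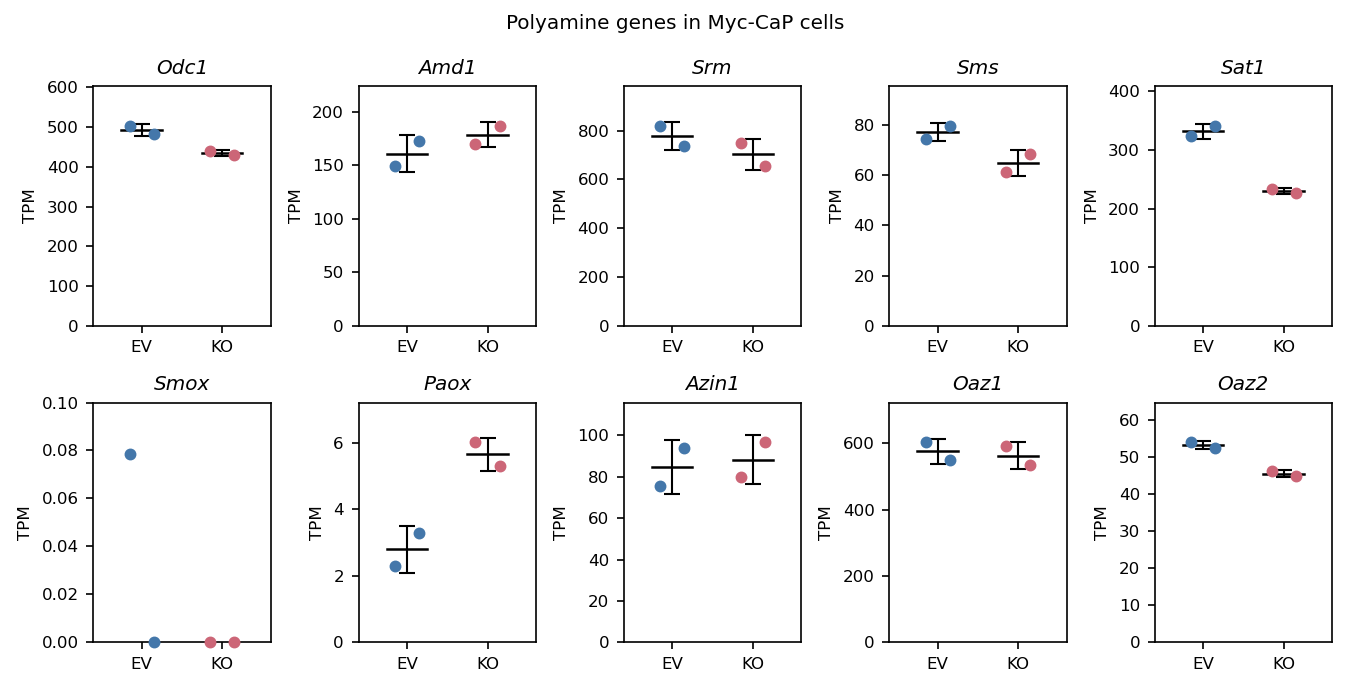
TPM of the 10 polyamine genes in the 2 EV (blue) and 2 KO (red) Myc-CaP libraries, each axis starting at 0. Points are libraries in the order 1 and 2, and black bars show the mean and SD of the 9 tested genes. Both KO values of Sat1 lie at 233 TPM or below and both EV values at 323 TPM or above.

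Sat1 measured 323 and 341 TPM in EV libraries 1 and 2 and 233.0 and 226 TPM in KO libraries 1 and 2. The groups did not overlap, which held for 51.5% of all genes tested (24.9% above and 26.6% below). Its limma adjusted p was 0.0122, and 3.16% of all tested genes had a log2 fold change as low. Without any 1 of the 4 libraries the fold change stayed between -0.57 and -0.49 while the adjusted p rose to between 0.0989 and 0.132, in the fits of 2 against 1 that lost nearly all calls, and it was 0.0602 without a variance trend. Paox was low in EV libraries, at 2.30 and 3.30 TPM, and measured 6.02 and 5.32 TPM in KO libraries. The KO libraries lay above the EV libraries, with a log2 fold change of 0.82 (95% interval 0.36 to 1.28) and a limma adjusted p of 0.0695, which became 0.0405 after removal of the trend on gene length.

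Smox was not tested in Myc-CaP, since its mean was under the filter. It was listed at 0.07865 TPM in EV library 1 and at 0 in the other 3 libraries. The gene that rose most among the catabolic enzymes of the epithelium was thus barely detected in this line, and no comparison of its change could be made.

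The synthetic enzymes were abundant in Myc-CaP and none was called. Odc1 measured 503 and 482 TPM in EV libraries and 440.1 and 429.9 TPM in KO libraries. The KO libraries were below the EV libraries, with a log2 fold change of -0.18 (95% interval -0.31 to -0.042) and a limma adjusted p of 0.139. Sms was likewise lower in both KO libraries, at 74.6 and 79.55 TPM against 61.1 and 68.4 TPM (log2 fold change -0.25, 95% interval -0.45 to -0.043, limma adjusted p = 0.162). Srm, the most abundant of the 10 genes here, measured 819 and 739 TPM against 748.5 and 657 TPM, and Amd1 149 and 173 TPM against 170.3 and 187 TPM, and for both the groups overlapped. Their log2 fold changes were -0.15 (95% interval -0.38 to 0.084) and 0.15 (-0.092 to 0.39), with limma adjusted p-values of 0.42 and 0.435.

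Of the regulators, Oaz2 measured 53.9 and 52.5 TPM in EV libraries and 46.1 and 44.9 TPM in KO libraries, without overlap. Its log2 fold change was -0.22 (95% interval -0.37 to -0.069), with a limma adjusted p of 0.112. Oaz1 (603 and 549.7 TPM against 591 and 534 TPM) and Azin1 (75.5 and 94.1 TPM against 80.0 and 96.6 TPM) overlapped, and their log2 fold changes of -0.03 and 0.06 had limma adjusted p-values of 0.851 and 0.857. The value of Oaz1-ps was 0.491% to 0.574% of that of Oaz1 and the value of Amd2 was 8.93% to 10.1% of that of Amd1. The order by level in EV libraries was Srm (779 TPM), Oaz1 (576 TPM), Odc1 (492 TPM), Sat1 (332 TPM), Amd1 (161 TPM), Azin1 (84.8 TPM), Sms (77.05 TPM), Oaz2 (53.2 TPM) and Paox (2.80 TPM), and among neighbours only Azin1 and Sms overlapped.

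Odc1 divided by the sum of the antizyme genes was 0.766 and 0.8 in EV libraries and 0.69 and 0.743 in KO libraries. Amd1 over Sat1 went from 0.485 ± 0.0324 to 0.779 ± 0.0671 and Odc1 over Sat1 from 1.49 ± 0.101 to 1.89 ± 0.00797 (SD, n = 2 each), both without overlap. These ratios are descriptions with no test. Of the epithelial markers, whose sum was 0.940 to 1.48 TPM in EV libraries, 2 of 6 were tested and both were called higher, with a sum of 44.7 to 44.8 TPM in KO libraries. The defining epithelial markers were therefore near 0 in the EV libraries of a line labelled as prostate cancer, and the part of their change in the polyamine genes was not tested. All 4 T cell markers, 4 of 6 neutrophil markers and 5 of 6 prostate luminal secretory markers were listed at 0 in all 4 libraries.

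**Figure D4:**
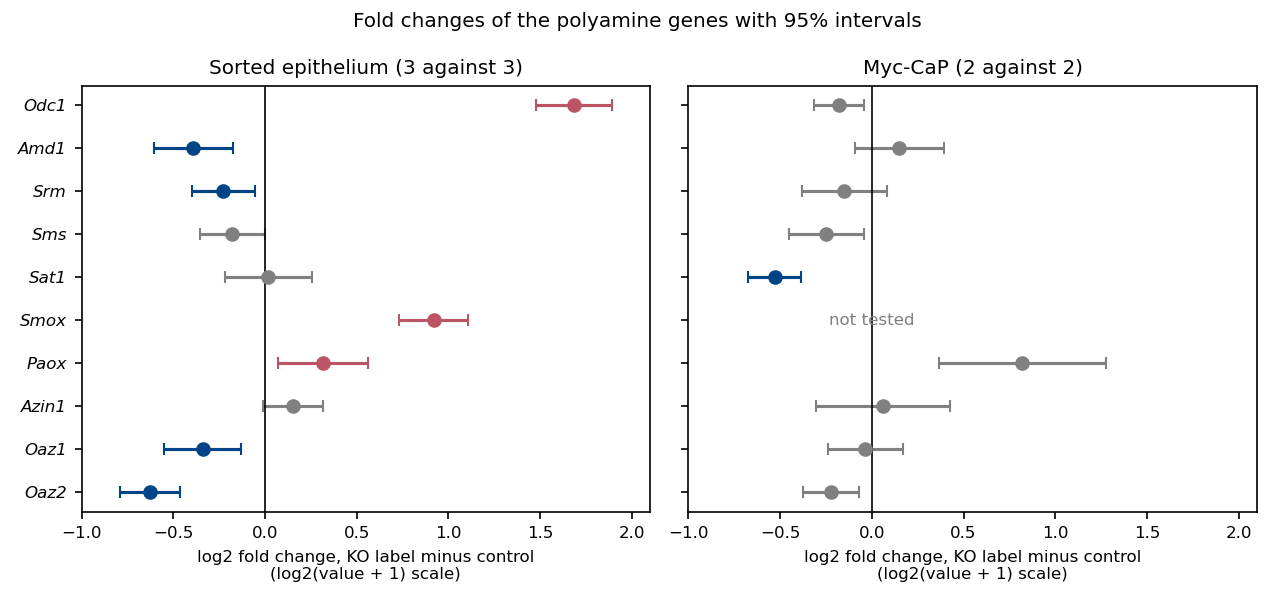
Log2 fold changes of the 10 polyamine genes between KO-labelled and control or EV libraries on the log2(value + 1) scale, in the epithelium (left) and Myc-CaP (right), with 95% intervals from limma. Red marks genes called higher, blue genes called lower and grey genes not called. Odc1 stands at 1.69 in the epithelium and -0.18 in Myc-CaP, and Smox was not tested in Myc-CaP.

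Genes around the route were described by a list of 40 that supply ornithine, move polyamines or arginine, salvage the methylthioadenosine released by Srm and Sms, or use spermidine. In the epithelium 32 were tested and 24 called, 9 higher and 15 lower, against 57.1% of all tested genes. Their median log2 fold change was -0.20, against -0.03 over all tested genes. In Myc-CaP 24 were tested and 2 called, both higher, against 6.43% of all tested genes.

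**Figure D5:**
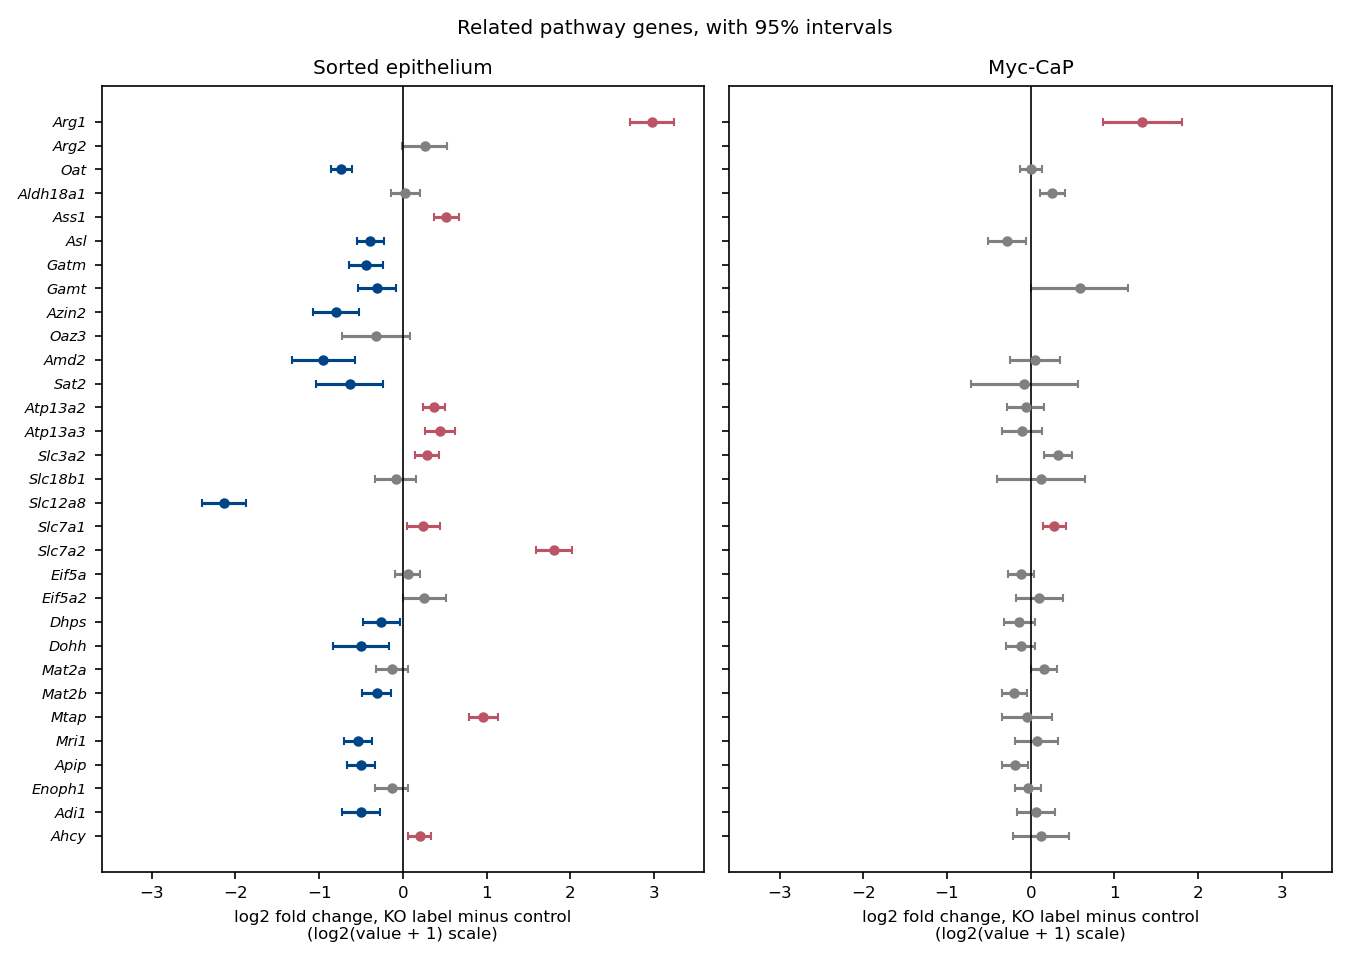
Log2 fold changes of 31 of the 32 related genes tested in either table, on the log2(value + 1) scale with 95% intervals from limma, in the epithelium (left) and Myc-CaP (right). Red marks genes called higher, blue genes called lower and grey genes not called, and a gene with no point was not tested there. Arg1 is called higher in both, at 2.98 and 1.33.

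Of the genes that supply or use ornithine, 2 of 8 tested in the epithelium rose and 4 fell, against 27.5% and 29.6% of all tested genes. Arg1, which encodes the arginase that makes ornithine from arginine and is also abundant in some macrophages, measured 28.35, 28.45 and 25.9 RPKM in the control libraries and 256, 231 and 189 RPKM in those labelled KO. The groups were widely separated, and the log2 fold change of 2.98 ± 0.11 (SE) had a limma adjusted p of 4.41e-06. In Myc-CaP, where macrophage markers summed to 0.823 to 2.80 TPM with EV and 1.47 to 2.46 TPM with KO, Arg1 rose from 0.386 and 0.614 TPM in EV libraries to 2.87 and 2.67 TPM in KO libraries, with a log2 fold change of 1.33 ± 0.18 (SE) and a limma adjusted p of 0.0235 that was lost in the fits of 2 against 1 libraries (1.22 to 1.44, adjusted p from 0.11 to 0.158). The Myc-CaP call of Arg1 was also lost without the filter on low values (limma adjusted p = 0.0734). Which cells gave the Arg1 transcript was not tested in either system. Oat, whose product turns ornithine into an intermediate of proline and glutamate synthesis, fell in the epithelium from 62.2 ± 1.56 to 36.9 ± 0.395 RPKM (-0.74, limma adjusted p = 5.45e-05). In Myc-CaP it was 149.3 and 149.7 TPM by group means, with a log2 fold change of 0.0036 (limma adjusted p = 0.98). Ass1 of the urea cycle also rose in the epithelium (0.52), while Asl of the same cycle (-0.39) and both enzymes of creatine synthesis, Gatm (-0.44) and Gamt (-0.31), fell. The call of Gamt was lost in 7 of 15 alternatives, among them removal of control library C (-0.21) or of any 1 KO-labelled library (-0.33 to -0.29), with adjusted p-values from 0.0511 to 0.0865.

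Transport genes differed in both directions in the epithelium, with 5 of 8 tested higher and 2 lower, against 27.5% and 29.6% of all tested genes. Slc7a2, a transporter of cationic amino acids such as arginine and ornithine, rose from 1.065 ± 0.143 to 6.23 ± 0.540 RPKM (SD, n = 3 each; log2 fold change 1.81, limma adjusted p = 1.48e-05). Atp13a2 and Atp13a3, which encode polyamine-transporting ATPases of the endolysosomal system, rose by 0.37 and 0.44 on the log2 scale, and Slc3a2, the shared heavy chain of several amino acid transporters, by 0.29. Slc12a8 fell from 4.45 ± 0.138 to 0.243 ± 0.171 RPKM (-2.14). Slc7a1, another cationic amino acid transporter, was called higher in both tables (0.24 and 0.28), with limma adjusted p-values of 0.0395 in the epithelium and 0.0467 in Myc-CaP. The epithelium call of Slc7a1 was lost without any 1 library other than control library A (0.17 to 0.27, adjusted p from 0.0617 to 0.106), and after removal of the trend on gene length it gave 0.041 (adjusted p = 0.578). The Myc-CaP call was lost in 8 of 12 alternatives, among them the fits of 2 against 1 (0.27 to 0.29). It was also lost without the filter on low values (limma adjusted p = 0.0763) and without a variance trend (0.142). Quantile normalization and removal of the trend on gene length gave adjusted p-values of 0.0506 and 0.053.

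Methylthioadenosine is released when Srm and Sms transfer an aminopropyl group, and Mtap encodes the enzyme that begins its salvage to methionine. Mtap rose in the epithelium from 11.6, 13.3 and 11.7 RPKM to 23.2, 25.6 and 25.1 RPKM, with a log2 fold change of 0.96 ± 0.07 (SE) and a limma adjusted p of 6.51e-05. Every KO-labelled library exceeded every control library by a wide margin. The next enzymes of that salvage did not share the direction, as Mri1 (-0.53), Apip (-0.50) and Adi1 (-0.50) fell and Enoph1 (-0.13, adjusted p = 0.211) did not pass. Of the genes that supply or recycle S-adenosylmethionine, Mat2b fell (-0.31), Ahcy rose (0.20) and Mat2a did not pass (-0.13, adjusted p = 0.212). The Mat2b call was lost on rescaling to the same sum (-0.15, adjusted p = 0.136). The Ahcy call was lost without control library A or C or KO-labelled library A or B (0.18 to 0.20, adjusted p from 0.0531 to 0.0797). In Myc-CaP the log2 fold changes of the 5 salvage genes ran from -0.19 to 0.07 and none was called.

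Spermidine is the substrate for hypusine, a modified lysine of the translation factor eIF5A. Eif5a itself did not pass the test in the epithelium (226 ± 6.00 and 235 ± 5.63 RPKM, log2 fold change 0.06, limma adjusted p = 0.455), but it was called after removal of the trend on gene length and after rescaling to the same sum. Dhps and Dohh, which encode the enzymes that form hypusine, fell by 0.26 and 0.50 (adjusted p = 0.0498 and 0.02). The call of Dhps was lost in 10 of 15 alternatives and that of Dohh in 5 of 15. Dhps did not pass without any 1 library other than KO-labelled library C (-0.29 to -0.17, adjusted p from 0.0695 to 0.147), nor Dohh without KO-labelled library A (-0.47, adjusted p = 0.0616) or C (-0.47, adjusted p = 0.056). Of the 4 further family members tested in the epithelium 3 fell, against 29.6% of all tested genes, and Oaz3 did not pass (-0.32, limma adjusted p = 0.146). Azin2 fell from 4.29 ± 0.691 to 2.02 ± 0.240 RPKM (-0.80) and Amd2 from 1.52 ± 0.559 to 0.288 ± 0.0865 RPKM (-0.95). Sat2 went from 1.45 ± 0.390 to 0.584 ± 0.308 RPKM (-0.63), a call lost without control library C (-0.54, adjusted p = 0.0528) and after removal of the trend on gene length (-0.37, adjusted p = 0.0964).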

How the data were processed

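Paired-end RNA-seq was measured in 6 libraries of sorted prostate epithelium and 4 Myc-CaP libraries. Per the study's methods the authors aligned reads to GRCm38 with TopHat2 and counted them per gene, by strand, with HTSeq-count. The submitters' processing notes name HISAT2, HTSeq and DESeq2. The authors deposited the epithelium as RPKM (scaled by gene length and mapped reads) and Myc-CaP as TPM (scaled by length, then to the same sum). Gene lengths behind either are not given in the sources used here. Neither unit is a count, and reads per gene were not recovered, so no counting interval is given and a 0 is called listed at 0.

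Groups came from the genotype label. On the log2(value + 1) scale, each table was fitted alone, for genes whose mean reached 0.5, with limma 3.58.1 (lmFit, eBayes with a trend, R 4.3.3), no covariate, two-sided, with Benjamini-Hochberg adjustment over all genes tested and calls at an adjusted p under 0.05. That scale understates changes of low genes. The study used DEGseq on counts, which these units do not allow. The script was tested on simulated data. The smallest p of an exact permutation of 3 against 3 is 0.1. Positions came from GENCODE M21 and promoters from RefSeq GRCm38.p6, identity from local alignment with Biopython 1.88. Named genes were the 10 chosen by symbol, those of 40 related genes that were called in either table or belong to a group described, and Arid1a. Which of them were given with full values was decided after these were seen. The genes and lists were chosen with earlier results of these data known. List counts include every tested gene of a list, and some single items are not reported here.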

Additional observations from a re-analysis of the deposited data

Results flagged for a closer look

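Odc1 and Gamt were singled out because every KO-labelled library moved one way in the epithelium and the opposite way in Myc-CaP. Groups that do not overlap were common, at 66.7% of all genes tested in the epithelium and 51.5% in Myc-CaP. How many of all genes separated in opposite directions was not counted, so these genes cannot be called unusual. The log2 fold change of Odc1 was 1.69 in the epithelium and -0.18 in Myc-CaP, where it did not pass the limma test. That of Gamt, which encodes the last enzyme of creatine synthesis, was -0.31 in the epithelium and 0.58 in Myc-CaP, where it did not pass either (adjusted p = 0.226). Gamt measured 5.80 ± 0.849 and 4.47 ± 0.141 RPKM in the epithelium (SD, n = 3 each) and its call there was lost in 7 of 15 alternatives, while in Myc-CaP it measured 2.24 ± 0.516 and 3.89 ± 1.12 TPM (n = 2 each). The difference between the systems was not tested for either gene, since the tables were normalized separately.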

How the results depend on the processing

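In the epithelium, 5 to 7 of the 10 polyamine genes and 19 to 25 of the related genes were called over the 15 alternatives, and Odc1, Smox and Oaz2 were called in each. Leaving out 1 library gave 5 to 7 and 19 to 23. The direction turned for Srm after removal of the trend on gene length (0.0232) and for Sat1 without control library A (-0.0452) or C (-0.0233), and neither passed. Sat1 ran from -0.0452 to 0.1236 without 1 library. Rescaling to the same sum moved the higher share of all calls from 48.1% to 64.0%. In Myc-CaP, the 1 called gene became 0 without a variance trend (3 with an unadjusted p under 0.05), 0 without any 1 library (2 or 3 unadjusted, in fits that assume the lone library varies like the other group) and 2 after removal of the trend on gene length. The 2 related genes called became 0 without the filter on low values (8 unadjusted), 0 without any 1 library (4 or 5 unadjusted), and 1 without a variance trend, under quantile normalization or after removal of the trend on gene length. The direction turned for Azin1 without EV library 1 (-0.0966) or KO library 2 (-0.0743) and for Oaz1 without EV library 1 (0.0315) or KO library 2 (0.039), with ranges without 1 library of -0.0966 to 0.2164 and -0.1089 to 0.039. The cause was not tested. With a replicate block the counts were 6 and 23 in the epithelium and 7 (Odc1, Amd1, Srm, Sms, Sat1, Paox and Oaz2) and 9 in Myc-CaP. The shared letters and numbers were not shown to pair libraries. Deviations from group means of same-lettered epithelium libraries correlated at 0.041, 0.0094 and -0.057 across genes, so not every library correlated best with its own letter. In Myc-CaP the correlation was 0.19 for same-numbered and -0.19 for differently numbered libraries. With 2 libraries a group these values mirror each other by construction, so the pairs are not separate observations. Over all genes the block raised the calls in Myc-CaP from 899 to 2771. Depth could not be read per gene, and with 2 libraries a group, and values such as those of Smox in Myc-CaP near 0, small differences could not be seen.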
